A study of Mus musculus with 4 samples.

Results

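The synaptic vesicle and exocytosis families examined here are the synaptotagmins (Syt), vesicle-associated membrane proteins (Vamp), syntaxins (Stx), SNAP proteins (Snap), complexins (Cplx), Rab3 GTPases, synapsins (Syn) and SV2 proteins in the cortex of APPswe/PS1ΔE9 mice and of WT mice. Members were chosen by gene symbol alone, from transcripts listed as protein coding, a rule that uses no measured value. The families themselves were chosen with earlier results of these data known. Of 15390 genes with protein-coding transcripts, 55 were members. Because the deposited table writes symbols in mixed case and leaves 8274 of 37539 transcripts without one, members were matched by Ensembl identifier in GENCODE M21. The symbols ignoring case gave 51 of them, and case as written gave 13, while Snap23, Syt11, Sv2c and Rab3c came in by identifier alone. The members held 102 protein-coding transcripts, whose counts were summed per gene, and 42 transcripts of other types. Snap91 met the symbol rule but encodes AP180, a clathrin assembly protein, and is given apart from the SNAP proteins.

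Whole transcriptome sequencing of cortex had been carried out in 2 male APPswe/PS1ΔE9 mice (APP) and 2 male WT mice, all 12 months old and on a C57BL/6 background. The APP mice carry mutant human APP and PS1 transgenes, expressed in this line from the mouse prion protein promoter, and the WT mice carry none. The libraries are called APP-3, APP-4, WT-1 and WT-2 after the deposited columns and held between 28525117 and 43881196 counts. The coding transcripts of mouse App, to which transgene reads can also align, were at 2687 and 2384 CPM (counts relative to the TMM-scaled library size) in APP-3 and APP-4 and at 856 and 905 in WT-1 and WT-2, which sets the labelled groups apart.

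Neurotransmitter is released when a vesicle SNARE protein, a VAMP, zips together with syntaxin and SNAP-25 on the plasma membrane and pulls both membranes into fusion. Synaptotagmins sense the calcium that enters with an action potential, complexins clamp and assist the partly assembled SNARE complex, Rab3 GTPases bring vesicles to the release site, synapsins hold the reserve pool, and SV2 proteins are transporter-like proteins of the vesicle membrane. Other VAMPs, syntaxins and SNAP proteins serve trafficking inside the cell, which every cell type needs.

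None of the 55 genes was called different between APP and WT cortex. By edgeR's quasi-likelihood test, 0 members had an adjusted p below 0.05 at any fold change, where 1.59% of the 15390 coding genes did, and 0 were called with a fold change of at least 1.5 besides, where 1.2% were. At an unadjusted p below 0.05 there were 10 members, against 13.7% of coding genes. Of these 10, the 2 with higher values in APP were Syt9 and Sv2c, and the 8 with lower values were Syt13, Stx1a, Snap29, Syt4, Cplx1, Rab3a, Syn1 and Syn2, a direction in which 5.33% of coding genes had such a p. The edgeR exact test and likelihood ratio test each called 1 member, Syt9, where 3.32% and 3.58% of coding genes were called, and DESeq2 called 0, where 1.96% were. Both APP libraries lay below both WT libraries in 15 members and above them in 5, where 22.2% and 21.9% of coding genes did so, and 35 overlapped.

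The median log2 fold change of the members was -0.027 and that of all coding genes -0.0023. For 28 members the log2 fold change was smaller than 0.1 in either direction. The standard error of a member's log2 fold change had a median of 0.086 and ranged from 0.065 to 0.43. The count of 0 depended on the libraries. With APP-3 left out, 11 members had an adjusted p below 0.05 by the quasi-likelihood test, beside 1620 of 15379 coding genes. With APP-4 left out 6 members did, beside 1047 of 15361, and with WT-1 left out 1 did, beside 169 of 15359. In these fits the single library left in a group was assumed to vary like the pair in the other group.

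**Figure D1:**
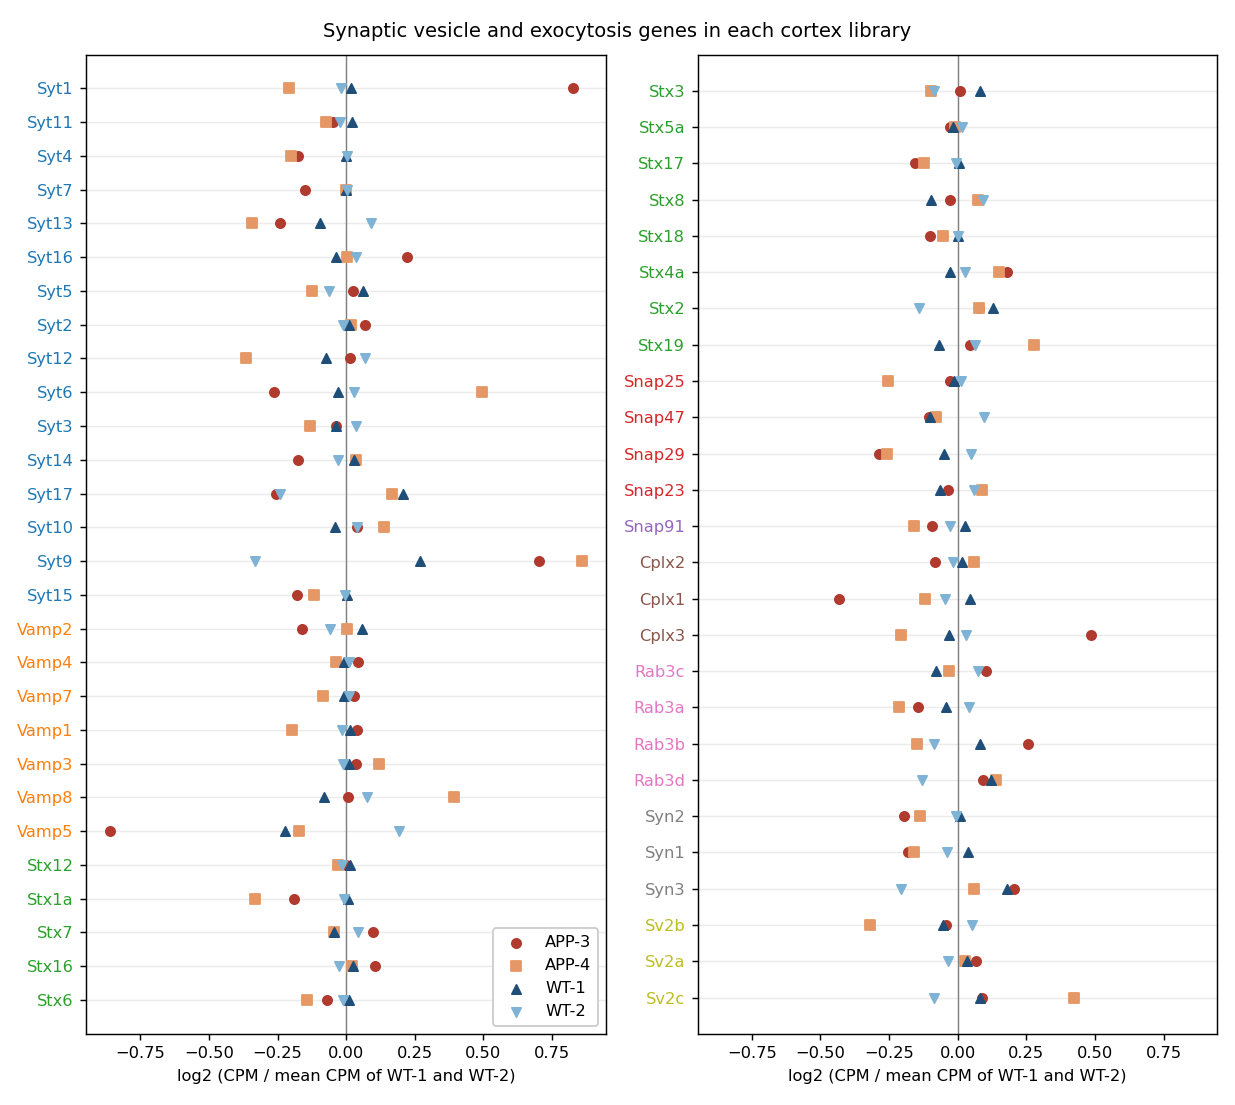
Level of 54 of the 55 genes in each library, as the log2 of its CPM over the mean CPM of WT-1 and WT-2, in family order (coloured names) and by falling abundance within a family. Most genes sit within 0.25 of the WT mean in both APP libraries, and Syt1 in APP-3, Syt9 in both APP libraries and Vamp5 in APP-3 lie farthest away.

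Synaptotagmin-1, the calcium sensor of fast synchronous release in forebrain neurons, was the most abundant synaptotagmin per length, at 153 CPM per kb in WT. Syt1 (ENSMUSG00000035864, GRCm38 chr10:108497650-109010982, minus strand) was at 1268 and 619 CPM in APP-3 and APP-4 and at 724 and 706 in WT-1 and WT-2. APP-3 thus lay far above the other 3 libraries and APP-4 below both WT libraries, so the groups overlapped. The log2 fold change of APP over WT was 0.40 ± 0.24 (SE), with an adjusted p of 0.614 by the quasi-likelihood test. Leaving out APP-3 turned it to -0.21, and leaving out APP-4 gave 0.83, each with a single APP library left. The log2 ratio of APP-3 to APP-4, 1.03, was the most positive of the 1698 coding genes above 100 CPM. The next was 0.86 and the median 0.061, and genes higher in APP-4 were not ranked by size. The WT pair differed by 0.037 for this gene.

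The excess in APP-3 was on the spliced coding transcripts of Syt1 and not on those with a retained intron. Syt1-201, the main coding transcript, was at 1255 and 604 CPM in APP-3 and APP-4 and at 709 and 693 in WT-1 and WT-2. Syt1-203, a retained-intron transcript, was at 33.3, 32.9, 32.3 and 30 CPM in the same order. The 2 other coding transcripts, Syt1-202 and Syt1-206, were also highest in APP-3, with log2 ratios of APP-3 to APP-4 of 0.84 and 0.64. The 2 other retained-intron transcripts, Syt1-204 and Syt1-205, had ratios of -0.23 and -0.17. Transcripts of a gene share reads, and how reads that fit several of them were assigned is not given in the sources used here. Syt1-203 and Syt1-204, at chr10:108899432-109009100 and chr10:108899215-109010962, do not reach the stretch printed here, which tells Syt1-205 from Syt1-201 on the minus strand. The 30 bases before the junction are given in lower case. They end the coding exon before it in Syt1-201 (GRCm38 chr10:108642214-108642243) and the retained intron in Syt1-205 (chr10:108636674-108636703). The first 30 bases of the coding exon that both transcripts hold (chr10:108636644-108636673) are in capitals.
Syt1-201: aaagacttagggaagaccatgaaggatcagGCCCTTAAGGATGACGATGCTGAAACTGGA
Syt1-205: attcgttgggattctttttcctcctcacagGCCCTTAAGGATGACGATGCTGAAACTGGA

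**Figure D2:**
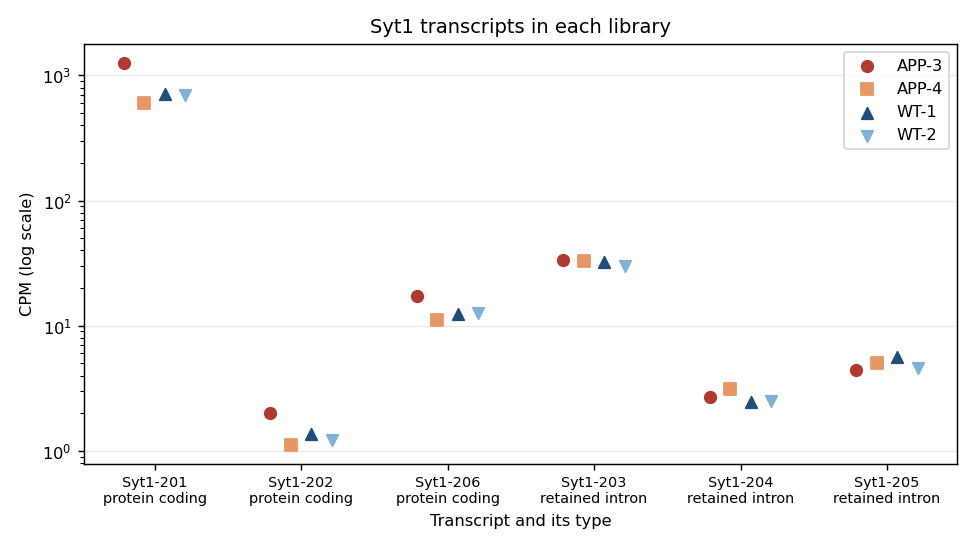
CPM of the 6 Syt1 transcripts in each library on a log axis, labelled with the type of transcript. APP-3 stands above the other libraries on the 3 coding transcripts, at 1255 CPM against 604 to 709 on Syt1-201, and not on the 3 retained-intron transcripts, which lie close together in all 4 libraries.

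Synaptotagmin-9, another fast calcium sensor and one of the least abundant members, had the largest difference between groups. Syt9 (ENSMUSG00000062542, chr7:107370728-107548656, plus strand) was at 5.95 and 6.64 CPM in APP-3 and APP-4 and at 4.41 and 2.91 in WT-1 and WT-2. Both APP libraries were above both WT libraries, and the WT pair lay apart from each other. The log2 fold change was 0.77 ± 0.20 (SE), 172% of the WT mean, with an adjusted p of 0.142 by the quasi-likelihood test. The adjusted p was 0.035 by edgeR's exact test, 0.032 by the likelihood ratio test and 0.161 by DESeq2. Without WT-2 the log2 fold change was 0.51, and without WT-1 it was 1.11. Its 1 coding transcript had an adjusted p of 0.081 when transcripts were tested in place of genes.

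Syt13, a synaptotagmin that does not bind calcium, had the most negative difference among members above 1 CPM. It was at 109 and 102 CPM in APP-3 and APP-4 and at 121 and 138 in WT-1 and WT-2, so that both APP libraries were below both WT libraries. The log2 fold change was -0.29 ± 0.080 (SE; adjusted p = 0.168, quasi-likelihood test). Syt4, a calcium-insensitive isoform induced by neuronal activity, was at 278, 273, 314 and 315 CPM in the same order, again without overlap. Its log2 fold change was -0.19 ± 0.065 (SE; adjusted p = 0.296, quasi-likelihood test).

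The remaining 12 synaptotagmins had adjusted p-values of 0.696 or more. Syt2, the fast sensor of brainstem and interneuron terminals, was at 48.9 and 47.2 CPM in APP-3 and APP-4 and at 46.9 and 46.3 in WT-1 and WT-2, a log2 fold change of 0.043 (0.011 without APP-3 and 0.069 without APP-4). Syt7, a slow, high-affinity sensor, was at 133 CPM in APP-3 and between 147 and 148 in the other 3 libraries, with a log2 fold change of -0.073 (-0.0069 without APP-3 and -0.15 without APP-4). Syt6 was at 17.5 CPM in APP-3 and 29.5 in APP-4, on either side of the WT values of 20.5 and 21.4. Its log2 ratio of APP-3 to APP-4, -0.76, was the most negative of the members. The other 9 ranged in log2 fold change from -0.16 for Syt12 to 0.12 for Syt16.

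Of the core neuronal SNARE proteins, Stx1a had the most negative difference. Syntaxin-1A (Stx1a, ENSMUSG00000007207, chr5:135023482-135051100, plus strand), the plasma membrane SNARE of the synapse, was at 102 and 92.5 CPM in APP-3 and APP-4 and at 117 and 116 in WT-1 and WT-2. Both APP libraries were lower, at 83.5% of the WT mean, while the WT pair differed by less than 2 CPM. The log2 fold change was -0.26 ± 0.072 (SE; adjusted p = 0.171, quasi-likelihood test).

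Vamp2, the main vesicle SNARE of the cortex, was at 153 and 171 CPM in APP-3 and APP-4 and at 178 and 164 in WT-1 and WT-2. Its libraries overlapped, with a log2 fold change of -0.078 ± 0.079 (SE), -0.0057 without APP-3 and -0.16 without APP-4. Vamp1, its counterpart in fast-spiking and hindbrain neurons, was at 60, 50.9, 59.0 and 57.7 CPM in the same order, also with overlap. Vamp8, a SNARE of late endosomes and of secretory cells outside the brain, was low, at 3.28, 4.29, 3.09 and 3.44 CPM, with a log2 fold change of 0.22 ± 0.19 (SE), 0.011 without APP-4 and 0.39 without APP-3. Vamp5, a muscle protein, was at or below 0.79 CPM in every library. The 3 other VAMPs, Vamp3, Vamp4 and Vamp7, lay between -0.027 and 0.077.

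Snap25, the plasma membrane partner of syntaxin-1 and the target of botulinum toxins, was the most abundant member per length, at 930 CPM per kb in WT. It was at 1921 and 1639 CPM in APP-3 and APP-4 and at 1940 and 1973 in WT-1 and WT-2. Both APP libraries were below both WT libraries, but APP-3 by only a small margin. The log2 fold change was -0.14 ± 0.077 (SE; adjusted p = 0.586, quasi-likelihood test), -0.26 without APP-3 and -0.027 without APP-4. Snap29, which takes part in autophagosome fusion, was at 20.3, 20.8, 24 and 25.6 CPM, without overlap. Its log2 fold change was -0.27 ± 0.086 (SE; adjusted p = 0.240, quasi-likelihood test). Snap23, the widely expressed relative of Snap25, was at 14.3, 15.6, 14.0 and 15.3 CPM, a log2 fold change of 0.031.

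Snap25 is made in 2 splice forms that differ in a single pair of alternative coding exons. Exon 5b, in Snap25-201, is the adult form, and exon 5a, in Snap25-202, is the one more common in development. Both exons have 118 bases and they differ at 31 positions, shown in capitals. Exon 5a lies at chr2:136769743-136769860 and exon 5b at chr2:136770057-136770174 (GRCm38, plus strand).
Snap25-202 exon 5a: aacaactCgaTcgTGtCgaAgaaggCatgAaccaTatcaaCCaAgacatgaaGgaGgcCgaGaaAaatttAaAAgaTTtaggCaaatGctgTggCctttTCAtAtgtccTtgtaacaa
Snap25-201 exon 5b: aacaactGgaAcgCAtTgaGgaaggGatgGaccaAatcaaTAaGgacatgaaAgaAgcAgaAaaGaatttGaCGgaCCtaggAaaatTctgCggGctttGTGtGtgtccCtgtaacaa

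The form with exon 5b made up nearly all of the coding counts. Snap25-201 was at 1909 and 1614 CPM in APP-3 and APP-4 and at 1918 and 1956 in WT-1 and WT-2, and Snap25-202 at 22.1, 18.4, 18.6 and 19.0 CPM. The ratio of Snap25-201 to Snap25-202 was 103 in each WT library, 86.2 in APP-3 and 87.9 in APP-4, lower in both APP libraries. The difference in that ratio was not tested. The 2 transcripts differ in length, at 2116 and 1014 bases, and share reads whose assignment is not given. The ratio of CPM is therefore not a ratio of molecules. By the quasi-likelihood test on transcripts, the adjusted p was 0.653 for Snap25-201 and 0.857 for Snap25-202.

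The other syntaxins, which work on endosomes, the Golgi and the plasma membrane of many cell types, showed small differences. Of the 14 syntaxins, 4 were lower in both APP libraries than in both WT libraries (Stx1a, Stx17, Stx18 and Stx6) and 1, Stx4a, was higher, where 22.2% and 21.9% of coding genes were. Stx19, one of the 6 members above 1 CPM with the largest positive differences, was at 5.43 and 6.38 CPM in APP-3 and APP-4 and at 5.02 and 5.50 in WT-1 and WT-2, with overlapping groups. Its log2 fold change was 0.17 ± 0.16 (SE), 0.048 without APP-4 and 0.27 without APP-3. The 12 syntaxins beside Stx1a and Stx19 ranged from -0.14 for Stx17 to 0.17 for Stx4a. None of the 12 had an adjusted p below 0.607 by the quasi-likelihood test.

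Of the complexins, Cplx1 was lower in both APP libraries and Cplx2 was not. Cplx1 (ENSMUSG00000033615, chr5:108518554-108550024, minus strand), the form more common in inhibitory and hindbrain neurons, was at 134 and 166 CPM in APP-3 and APP-4 and at 186 and 175 in WT-1 and WT-2. Both APP libraries were lower and APP-3 the lowest, for a mean of 150.0 ± 23.2 CPM (SD, n = 2) in APP and 180.5 ± 8.20 (SD, n = 2) in WT. The log2 fold change was -0.27 ± 0.098 (SE; adjusted p = 0.331, quasi-likelihood test). Leaving out APP-3 gave -0.12, and leaving out APP-4 gave -0.43. Cplx2, the main complexin of excitatory cortical neurons, was at 483, 534, 518 and 506 CPM, with a log2 fold change of -0.0097 ± 0.072 (SE). Cplx3, found in retina and in a deep layer of cortex, was at 9.33 CPM in APP-3 and 5.77 in APP-4, against 6.52 and 6.80 in WT. Whether the complexins differed from each other was not tested, and Cplx4 was not analysed here.

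Rab3a, the most abundant Rab3 protein of the brain, was at 167 and 159 CPM in APP-3 and APP-4 and at 179 and 190 in WT-1 and WT-2. The groups did not overlap, and the log2 fold change was -0.18 ± 0.069 (SE; adjusted p = 0.367, quasi-likelihood test). Rab3c was at 465, 424, 410 and 456 CPM in the same order, Rab3b at 29.2, 22.0, 25.9 and 23.0, and Rab3d, mostly a protein of secretory glands, at 6.98, 7.22, 7.12 and 5.98. These 3 overlapped between groups, with log2 fold changes of 0.037, 0.064 and 0.11.

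Synapsins I and II, which bind vesicles to one another and to actin, were lower in both APP libraries by a similar amount. Syn1 was at 111 and 113 CPM in APP-3 and APP-4 and at 130 and 123 in WT-1 and WT-2, a log2 fold change of -0.17 ± 0.067 (SE; adjusted p = 0.378, quasi-likelihood test). Syn2 was at 298, 309, 343 and 339 CPM, a log2 fold change of -0.17 ± 0.066 (SE; adjusted p = 0.380, quasi-likelihood test). Syn3, which is most abundant early in development, was at 9.61, 8.67, 9.43 and 7.22 CPM, and its groups overlapped.

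The 2 forms of synapsin II part at the end of one coding exon. Syn2-201, the long form a, is spliced to a further exon, and Syn2-202, the short form b, reads on past the splice site. The last 30 bases of the shared exon (GRCm38 chr6:115274227-115274256, plus strand) are given in capitals, followed by the 30 coding bases that come next in each form, from chr6:115278101-115278130 and chr6:115274257-115274286.
Syn2-201: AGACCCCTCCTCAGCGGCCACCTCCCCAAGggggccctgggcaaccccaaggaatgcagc
Syn2-202: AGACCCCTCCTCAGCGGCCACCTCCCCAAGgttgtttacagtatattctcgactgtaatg

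Both forms had lower values in APP. Syn2-202 was at 198 and 212 CPM in APP-3 and APP-4 and at 235 and 231 in WT-1 and WT-2, and Syn2-201 at 101, 96.7, 107 and 108. The log2 fold changes on transcripts were -0.19 ± 0.073 (SE) for Syn2-202 and -0.12 ± 0.074 (SE) for Syn2-201, with adjusted p-values of 0.407 and 0.70 by the quasi-likelihood test. The ratio of Syn2-202 to Syn2-201 lay between 1.96 and 2.19 in APP and between 2.14 and 2.20 in WT, so it overlapped.

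The SV2 proteins include Sv2a, the binding site of the antiepileptic drug levetiracetam. Sv2a was at 291 and 283 CPM in APP-3 and APP-4 and at 285 and 271 in WT-1 and WT-2, a log2 fold change of 0.048 ± 0.067 (SE), 0.014 without WT-2 and 0.079 without WT-1. Sv2b, the most abundant of the 3 per length, was at 717, 591, 710 and 765 CPM, so that APP-4 was lowest while APP-3 lay between the WT libraries. Its log2 fold change was -0.17 ± 0.091 (SE; adjusted p = 0.557, quasi-likelihood test), -0.33 without APP-3 and -0.041 without APP-4.

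Sv2c, the form found in basal ganglia and brainstem, was at 47.7 and 60.2 CPM in APP-3 and APP-4 and at 47.5 and 42.3 in WT-1 and WT-2. Its groups did not overlap, but APP-3 and WT-1 were nearly equal and APP-4 carried the difference, with a log2 fold change of 0.26 ± 0.11 (SE; adjusted p = 0.408, quasi-likelihood test), 0.085 without APP-4 and 0.41 without APP-3. The 8 striatal markers, among them Drd1, Drd2, Adora2a and Penk, summed to 300 and 619 CPM in APP-3 and APP-4 and to 413 and 471 in WT-1 and WT-2, all of them detected. APP-4 was thus highest and APP-3 lowest on the striatal list. For Sv2c APP-4 was also highest, but APP-3 was not lowest. The part of striatal tissue in the values of Sv2c and of the other members was not tested.

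**Figure D3:**
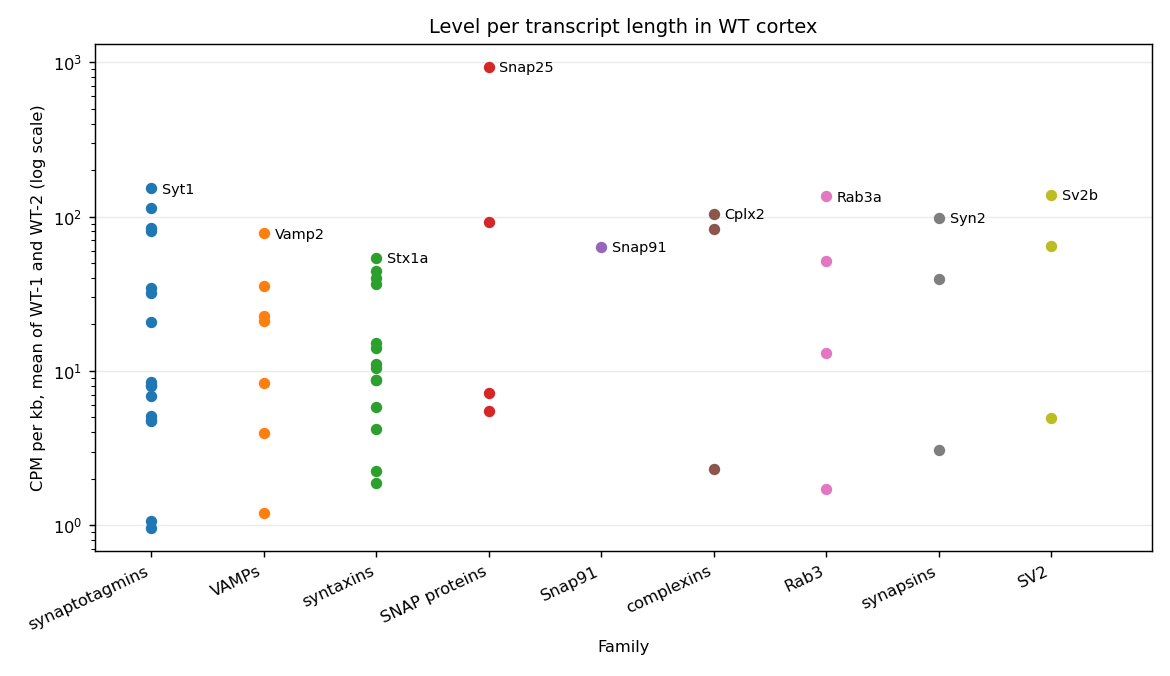
WT level of each gene per length, as CPM divided by the kilobases of its coding transcripts weighted by their counts, on a log axis by family, with the highest of each family named. Snap25 stands alone at 930 CPM per kb, and the other families top out between 53.9 CPM per kb for Stx1a and 153 for Syt1.

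By level per length in WT, the order of family leaders after Snap25 was Syt1 at 153 CPM per kb, Sv2b at 139, Rab3a at 135, Cplx2 at 104, Syn2 at 97.7, Vamp2 at 77.6, Snap91 at 63.7 and Stx1a at 53.9. The APP libraries gave a mean of 201 CPM per kb for Syt1, with the spread between APP-3 and APP-4 described above, 123 for Sv2b, 119 for Rab3a and 45 for Stx1a. At the other end, Syt15, Vamp5 and Syt9 were at 1.07, 1.21 and 0.958 CPM per kb in WT.

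The direction of a member's difference went with its abundance, as it did over all coding genes. Of the 20 members above 100 CPM, 17 had a negative log2 fold change, and the exceptions were Syt1, Sv2a and Rab3c. Of all 1698 coding genes above 100 CPM, 69.9% were negative. Of the 35 members below 100 CPM, 15 were negative and 20 positive, where 48.2% of coding genes were negative. Among the abundant members 10 were lower in both APP libraries than in both WT libraries, where 39.1% of all 1698 coding genes above 100 CPM were, and 7 had an unadjusted p below 0.05 in that direction, where 11.3% did. Their median log2 fold change was -0.11, beside -0.044 for all 1698 genes, and that of the less abundant members was 0.029. None of the 20 passed the test after adjustment. Snap91, the clathrin assembly protein, was one of the 10, at 253 and 242 CPM in APP-3 and APP-4 and at 275 and 265 in WT-1 and WT-2.

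**Figure D4:**
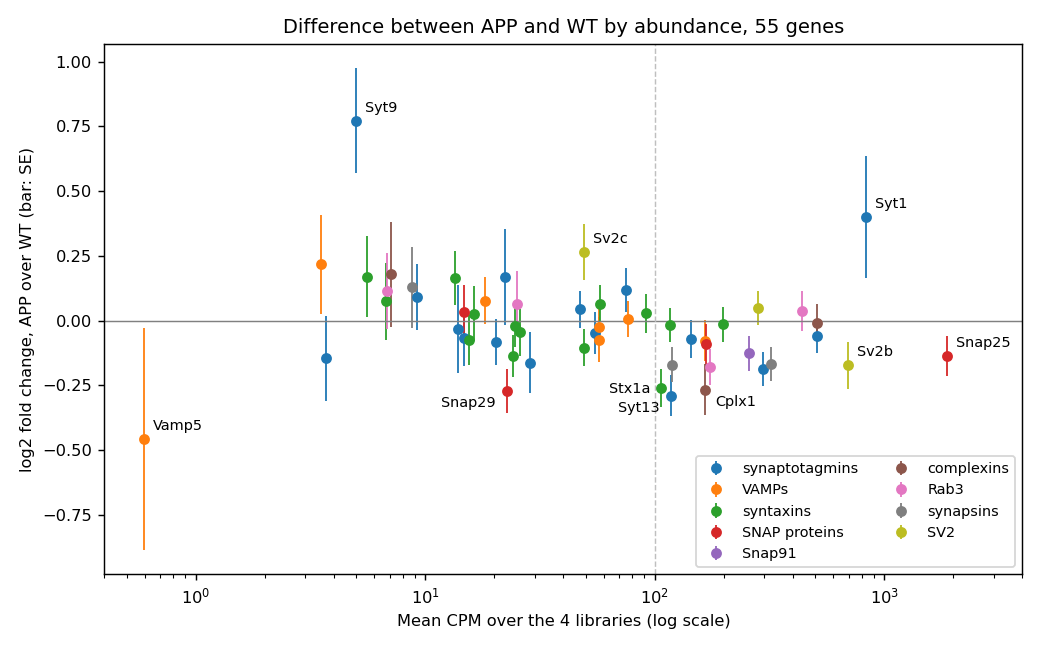
Log2 fold change of APP over WT against mean CPM over the 4 libraries for the 55 genes, with standard errors as bars, a dashed line at 100 CPM and colours for the families. To the right of the dashed line 17 of 20 genes lie below 0, with Syt1 the highest, and to the left the genes fall on both sides, with Syt9 at 0.77.

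Markers of neurons, glia and other cell types were set beside these values. The 8 markers of excitatory cortical neurons summed to 1282 CPM in APP-3 and 1278 in APP-4, against 1465 in WT-1 and 1393 in WT-2, and all 8 had a negative log2 fold change. Interneuron markers summed to between 506 and 607 CPM in APP and between 568 and 606 in WT, with 6 of 8 negative. Glial markers were higher in APP, with 8 of 8 positive in each list, at 4639 and 4977 CPM in APP against 3766 to 4147 in WT for astrocytes, 1345 to 1532 against 991 to 1112 for oligodendrocytes, and 237 to 298 against 163 to 164 for microglia. By the quasi-likelihood test, adjusted p-values below 0.05 with higher values in APP were found for 2 astrocyte markers (Gfap and Aqp4), 3 oligodendrocyte markers (Mag and Cnp among them) and 5 microglial markers (Cx3cr1, P2ry12, Csf1r, Aif1 and C1qa). The summed thalamic markers overlapped, at 238 to 265 CPM in APP and 241 to 255 in WT, but 5 of the 8 were higher in both APP libraries, each with an unadjusted p below 0.05, and the median log2 fold change of the 8 was 0.37. After adjustment 0 thalamic markers passed the quasi-likelihood test and 2 passed the exact and likelihood ratio tests. Endothelial markers were at 62.3 to 65.1 CPM in APP and 61.3 to 68.5 in WT. Hypothalamic markers were low, at 4.70 to 9.19 CPM in APP and 1.04 to 1.68 in WT, with 6 of 8 detected and Avp and Sim1 at 0 in WT-2 and Oxt at 0 in WT-1, and 4 of them (Avp, Oxt, Sim1 and Trh) passed the quasi-likelihood test with higher values in APP. The cortical markers Slc17a7 and Tbr1 were present in every library, as the tissue label says. In bulk tissue, fewer cells of a type and less RNA per cell cannot be told apart, and the part of these markers in the members' values was not tested.

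The rest of the release machinery was taken from the same fit. Of 81 further genes listed for priming and SNARE recycling, the active zone, other vesicle proteins and transporters, vesicle endocytosis, other SNAREs and synaptotagmin relatives, 80 could be tested. Of these, 1 passed the quasi-likelihood test with higher values in APP, Ppfia4, which encodes the active zone scaffold liprin-alpha-4. Of all coding genes, 1.59% passed that test in either direction. Ppfia4 was at 31.3 and 30.9 CPM in APP-3 and APP-4 and at 24.2 and 22.7 in WT-1 and WT-2 (log2 fold change 0.41, adjusted p = 0.0484, quasi-likelihood test). Of the 14 active zone genes, 0 passed by DESeq2, and 1 passed by each of the exact and likelihood ratio tests. Both APP libraries were lower than both WT libraries in 34 of the 80 and higher in 16, where 22.2% and 21.9% of coding genes were, and the median log2 fold change was -0.059. Vesicle endocytosis genes had 12 of 14 negative values and priming and SNARE recycling genes 12 of 18, where 50.6% of coding genes were negative. Synaptotagmin relatives had 3 of 9 negative. Of coding genes above 100 CPM, 69.9% were negative and 39.1% were lower in both APP libraries than in both WT libraries. The shares given for the lists were not matched for abundance.

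Syp, Nsf, Slc17a7 and Slc32a1 each had a negative log2 fold change, which did not hold for all of their lists. Of the 15 other vesicle membrane proteins and transporters, 10 were negative and 5 positive, with values up to 2.23. Of the 18 priming and SNARE recycling genes, 6 were positive. Syp, the vesicle protein synaptophysin that binds Vamp2, had a log2 fold change of -0.13, and Nsf, the ATPase that takes spent SNARE complexes apart, -0.10. The vesicular glutamate transporter Slc17a7 was at 323 and 313 CPM in APP-3 and APP-4 and at 382 and 392 in WT-1 and WT-2, a log2 fold change of -0.28 with an adjusted p of 0.0897 by the quasi-likelihood test and 0.0162 by DESeq2. The vesicular GABA transporter Slc32a1 was at 19.3, 25.6, 23.4 and 24.6 CPM in the same order, a log2 fold change of -0.092.

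**Figure D5:**
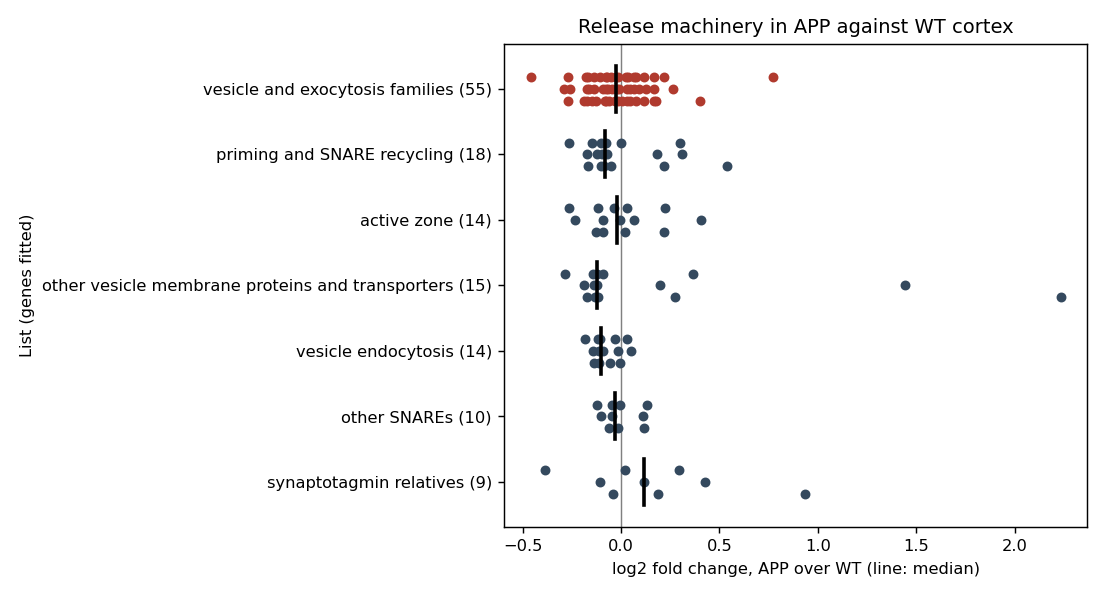
Log2 fold change of APP over WT for the 55 genes (red) and for 6 lists of other release genes, 1 point per gene, with the median as a black line and the number of genes fitted in brackets. Medians run from -0.12 for other vesicle membrane proteins and transporters to 0.12 for synaptotagmin relatives.

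Transcript by transcript, none of the 144 member transcripts was called either. The quasi-likelihood test on all 37539 transcripts gave 0 of 144 with an adjusted p below 0.05, where 1.06% of all transcripts had one, and 14 of 144 with an unadjusted p below 0.05, where 9.18% did. Of those 14, 12 were protein coding and 2 were retained-intron transcripts, of Sv2a and Vamp8. The median log2 fold change was -0.018 for the 102 coding transcripts and 0.038 for the 42 of other types.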

How the data were processed

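The study sequenced ribosomal RNA-depleted cortex RNA from 2 APP and 2 WT mice with a strand-specific paired protocol. The authors removed ribosomal pairs, aligned the remaining reads to Ensembl mouse RNAs with FANSe2, kept transcripts with enough mapped reads, and deposited the raw read count of each transcript per library. The Ensembl release and the handling of reads that fit several transcripts are not given in the sources used here. The submitters' processing notes name CASAVA 1.8, edgeR and a human genome build, although the identifiers are mouse. The authors' columns of log2 fold change, mean log2 CPM, p-value and FDR, and 4 more per-library columns of log2 CPM, were left aside.

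Transcript counts were added up for each gene of GENCODE M21 (GRCm38), whose identifiers matched 98.2% of transcripts, with protein-coding transcripts and other types kept as separate features. The members and lists were chosen with earlier results of these data known. All 23601 features had at least 10 counts over the libraries, and 0 were filtered out. APP was compared with WT in R 4.3.3 by edgeR 4.0.16 (TMM, glmQLFit and glmQLFTest) with Benjamini-Hochberg adjustment over all features, at 0.05 and, where stated, a fold change of 1.5. The common dispersion was 0.0082. An exact permutation test (two-sided) of 2 against 2 libraries cannot give a p under 0.333 and was not run, and the model borrows its estimate of spread across all features. DESeq2 1.42.0, the exact test and the likelihood ratio test of edgeR, scaling by library totals, a stricter count minimum, all transcripts summed, a fold change of 2 and leaving out each library in turn were alternatives, and matching by deposited symbol was added after the data had been seen. Tables and figures were made in Python 3.11.15 with pandas 2.3.3, numpy 2.4.6 and matplotlib 3.10.9, and sequences were cut from the GENCODE M21 transcripts by exon position.

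Any member could be named. Values in every library were given for the most abundant member of each family per length, the 6 largest positive and 6 largest negative differences among members of at least 1 CPM, and a fixed list of synaptic members (Syt1, Syt2, Syt7, Syt9, Vamp1, Vamp2, Stx1a, Snap25, Snap23, and the synapsins, SV2 proteins, complexins and Rab3 proteins). Of other genes, those with an adjusted p below 0.05 and Syp, Slc17a7, Slc32a1 and Nsf were named. Syt6 was chosen after its values were seen. A few genes on the lists are not reported here by name and stay in the counts and sums. The markers used to check the cortex label were lists of 8 genes each.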

Additional observations from a re-analysis of the deposited data

How the results depend on the processing

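The 28 named members gave 221 values under the alternatives that kept all 4 libraries. Of these, 219 kept their direction and their side of the threshold, and 2 passed it, Syt9 by edgeR's exact and likelihood ratio tests, which each called 1 member, with or without the fold change of 1.5, in place of 0. Matching by deposited symbol gave 3 members higher in both APP libraries in place of 5 and a median log2 fold change of -0.041 in place of -0.027. No alternative with all libraries reversed a named member.

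Leaving out each library in turn gave 0 to 2 called members, 0 to 11 with an adjusted p below 0.05 at any fold, 22 to 30 below and 11 to 17 above the WT libraries, where 33.1% to 42.4% of coding genes were below and 32.5% to 40% above, and a median from -0.049 to -0.026. With 1 library in a group fewer orders of the libraries count as overlap, so these counts of non-overlap rise by construction. Of 112 values of named members, 13 changed sign and the others kept it.
The values that changed sign ran from -0.084 to 0.054 for Cplx2, from -0.21 to 0.49 for Cplx3, from -0.16 to 0.25 for Rab3b, from -0.041 to 0.12 for Rab3c, from -0.0026 to 0.24 for Rab3d, from -0.036 to 0.093 for Snap23, from -0.046 to 0.34 for Syn3, from -0.21 to 0.83 for Syt1 and from -0.20 to 0.040 for Vamp1. The cause was not tested.

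No paired analysis was possible because the APP columns carry numbers that the labels of the APP mice do not, so they were matched to their group only. The depth gave Vamp5 between 11 and 28 counts per library, and members near 5 CPM such as Syt9 between 103 and 206.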
